A study of Mus musculus with 4 samples.

Results

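The genes of glycolysis and of the hypoxia response were followed across the cell types of the femoral epiphysis, the cartilage end of the thigh bone that vessels, bone and marrow invade after birth. The list held 38 symbols: glucose and lactate transporters, the enzymes that turn glucose into lactate, the oxygen-sensing hydroxylases, the HIF subunits and a set of known HIF targets. All 38 symbols were found among the 55416 annotated features of the deposited count matrices. The symbol Aldoa matched a second feature as well, which held 3 UMIs in all chondrocytes and was left out. Wild-type (WT) mice gave the cells at 4 ages, postnatal days 7, 8, 10 and 12. Each age is a single library, and the labels name no allele or treatment. How many animals went into a library is not stated in the sources used here, and the labels' protocol names another tissue at its digestion step. The series title places the study around cartilage cells as a source of blood stem cells by way of endothelium.

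Glycolysis splits glucose into pyruvate, and lactate dehydrogenase turns pyruvate into lactate, which lets a cell make ATP without oxygen. When oxygen is low, the prolyl hydroxylases encoded by Egln1 and Egln3 no longer mark the HIF alpha subunits (Hif1a and Epas1, which encodes HIF-2 alpha) for destruction, and HIF then binds DNA at a short core and raises transporters, glycolytic enzymes, mitochondrial proteins and collagen hydroxylases. HIF alpha is controlled mostly at the protein level, so its mRNA is no measure of its activity. Cartilage has no vessels, and HIF-1 is known to be needed for chondrocyte survival in the growth plate.

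The following stretches of DNA show what the promoters of genes in this list look like. Bnip3, Ldha and P4ha2 were higher in chondrocytes than in all other tested cell types and higher again in the hypertrophic zone. Ldhb was higher in chondrocytes in 4 of the 5 comparisons and moved the opposite way between zones. Each stretch is the 150 bases before a transcription start, 5′ to 3′ on the gene's strand, from RefSeq on GRCm38.p6, and capitals mark the HIF core ACGTG or its variant GCGTG on either strand (CACGT or CACGC when read on the other strand).
Bnip3: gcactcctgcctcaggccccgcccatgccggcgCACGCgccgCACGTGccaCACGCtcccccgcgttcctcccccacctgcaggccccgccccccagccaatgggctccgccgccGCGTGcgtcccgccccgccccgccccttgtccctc
Ldha: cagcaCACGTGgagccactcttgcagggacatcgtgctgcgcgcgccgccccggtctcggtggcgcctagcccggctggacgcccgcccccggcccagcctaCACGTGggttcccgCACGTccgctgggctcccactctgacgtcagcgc
P4ha2: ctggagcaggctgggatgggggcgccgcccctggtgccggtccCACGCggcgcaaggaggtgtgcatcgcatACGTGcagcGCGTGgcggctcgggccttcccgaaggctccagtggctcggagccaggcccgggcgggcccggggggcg
Ldhb: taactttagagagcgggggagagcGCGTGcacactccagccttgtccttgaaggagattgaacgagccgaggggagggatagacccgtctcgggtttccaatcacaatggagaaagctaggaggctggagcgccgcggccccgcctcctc

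The stretches lie at chr7:138909507-138909656 (minus strand) for Bnip3, chr7:46845654-46845803 (plus strand) for Ldha, chr11:54100774-54100923 (plus strand) for P4ha2 and chr6:142507958-142508107 (minus strand) for Ldhb. They hold 5 matches for Bnip3, 5 for Ldha, 3 for P4ha2 and 1 for Ldhb, where CACGTG counts once on each strand. Over the 250 bases before the start, 30 of the 33 listed genes with a RefSeq entry held a match in at least 1 window (90.9%), against 11226 of 27025 genes in all (41.5%). The listed genes' windows were richer in G and C, with a median of 62.2%, against 52.4% over all windows. Among all windows at or above that 62.2%, 4415 of 6598 genes held a match (66.9%). Counted by window, the shares were 82.6% for the listed genes, 38.6% for all genes and 65.3% for those windows rich in G and C. The list holds known HIF targets by choice, so its higher share of the HIF core is no independent result. A match describes letters in a window and does not show that a factor binds there. No entry was matched for Slc2a3, Bnip3l, Ndrg1, Epas1 and Ndufa4l2.

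Cell types were set by gates on marker genes, and no listed gene was part of any gate. A cell belonged to the chondrocyte gate when cartilage matrix genes such as Col2a1, Col9a1 and Acan took enough of its UMIs, and cells that met the gates of several lineages were left out, apart from fixed precedences (osteoclast over macrophage, macrophage over megakaryocyte, endothelial over reticular stromal and, among zones, hypertrophic over prehypertrophic). The chondrocyte gate held 9936, 7067, 339 and 3086 cells on days 7, 8, 10 and 12. The endothelial gate held 51, 269, 432 and 490 cells, the osteoblast gate 24, 45, 110 and 959, the osteoclast gate 38, 91, 156 and 927, the macrophage gate 90, 387, 527 and 1598, and the erythroid gate 26, 44, 2126 and 973 on the same days. Within chondrocytes, the hypertrophic zone (Col10a1, Mmp13, Ibsp) held 93, 112, 26 and 283 cells and the resting zone (Ucma, Pthlh, Sfrp5) 4613, 2884, 50 and 445. The 4 libraries came in a shallow and a deep pair: their cells had a median of 3103 and 3168.5 UMIs on days 7 and 8, and of 7706.5 and 6563.5 on days 10 and 12, and 62 to 240 cell barcodes were shared between any 2 libraries. Chondrocyte marker RNA was found in the other tested gates. Taken as free RNA, it amounts to an estimated 7.20%, 7.36%, 0.852% and 2.53% of UMIs in endothelial cells on days 7, 8, 10 and 12. Levels are CPM, a gene's UMIs scaled to 1000000 UMIs of all cells of a gate in a library. Tests between gates used edgeR over the 4 libraries, with the library as a block and p-values adjusted over all genes.

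Chondrocytes, the cells that make and maintain cartilage, were set against the invading endothelium. Of the 38 genes, 27 were higher in chondrocytes and 4 were lower, against 28.9% of all 13296 tested genes higher and 25.6% lower. The median log2 fold change of the list was 1.67, and that of all genes 0.05. The 8 largest were Aldoc, Ndufa4l2, P4ha2, Bnip3, Slc16a3, Eno2, Higd1a and Hk2, with log2 fold changes between 3.19 and 5.33. The 4 lower genes were Epas1, Adm, Ndrg1 and Ddit4. The other 7, Slc2a3, Hk1, Gpi1, Pfkp, Bnip3l, Ankrd37 and Egln3, did not pass the test.

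**Figure D1:**
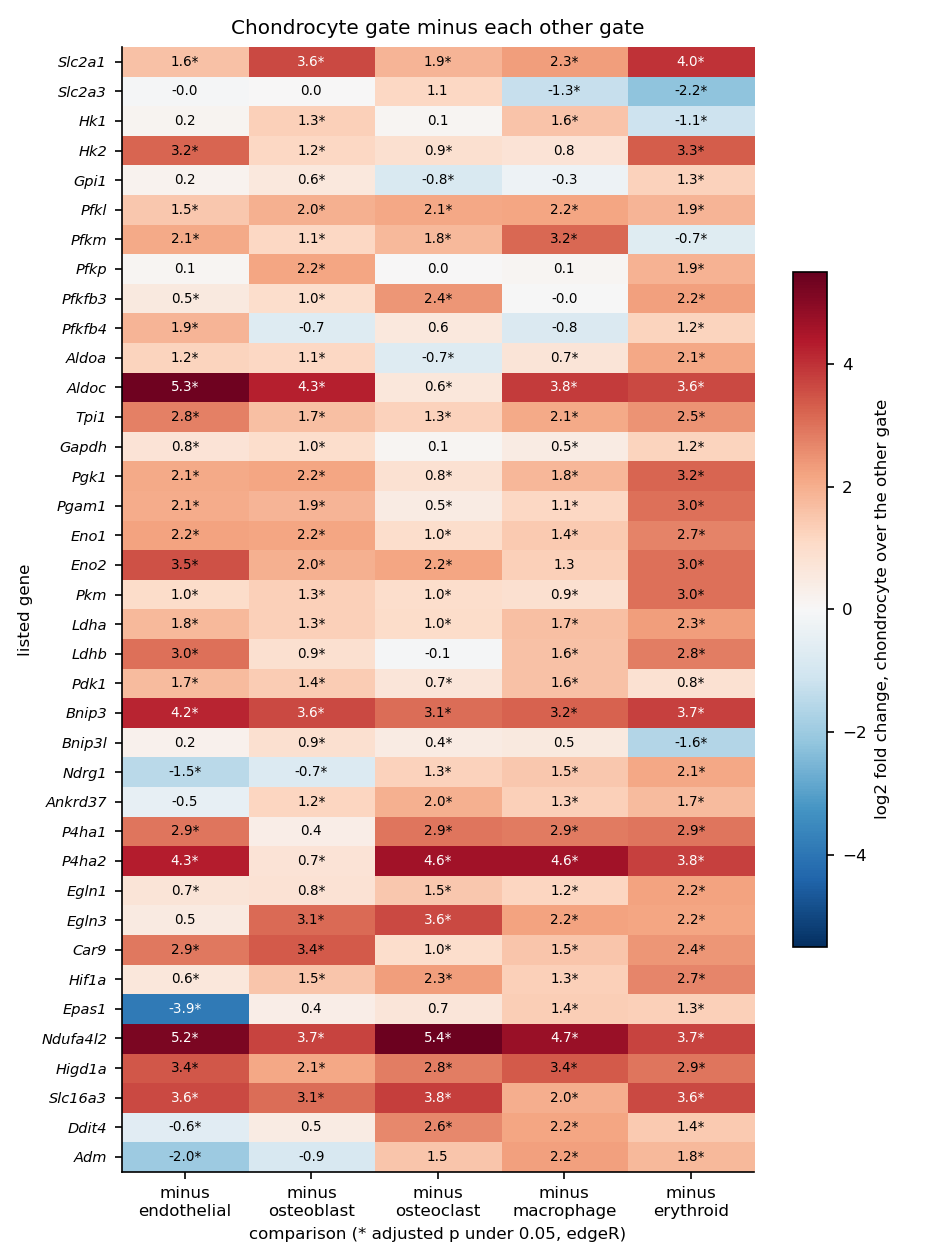
Log2 fold change of each of the 38 listed genes (rows) in the chondrocyte gate over each of 5 other gates (columns), from edgeR over 4 libraries, with a star where the adjusted p was under 0.05. Red, higher in chondrocytes, fills most of the map, and the blue exceptions are few: Epas1 against endothelial cells at -3.87 and Slc2a3 against erythroid cells at -2.21 are the lowest values.

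Glucose entry and trapping differed between paralogs. Slc2a1, the basal glucose transporter GLUT1, had 97.3, 110, 80.2 and 73.7 CPM in chondrocytes on days 7, 8, 10 and 12, against 55.6, 56.1, 31.2 and 26.3 CPM in endothelial cells. All 4 chondrocyte libraries lay above all endothelial ones (log2 fold change 1.60, SE 0.15, adjusted p = 2.04e-05). Slc2a3, the high-affinity transporter GLUT3, had 5.14, 5.20, 4.07 and 5.23 CPM in chondrocytes, against 8.33, 3.47, 6.51 and 8.50 CPM in endothelial cells, and these ranges overlapped (log2 fold change -0.05, adjusted p = 0.908). Hk2, the hexokinase that HIF is known to induce, had 126, 140, 94.4 and 57.8 CPM in chondrocytes, against 16.7, 22.2, 18.1 and 5.21 CPM in endothelial cells (log2 fold change 3.19, SE 0.20, adjusted p = 1.4e-06). Hk1, the housekeeping hexokinase, had 51.3, 59.4, 49.8 and 57.6 CPM in chondrocytes, against 50.0, 49.2, 74.1 and 79.6 CPM in endothelial cells, with no call (adjusted p = 0.444). Hk1 therefore made up 28.9%, 29.8%, 34.5% and 49.9% of the UMIs of both hexokinases in chondrocytes, against 75.0%, 68.9%, 80.3% and 93.8% in endothelial cells.

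Among the enzymes that prepare and split the sugar, the phosphofructokinases Pfkl and Pfkm, the liver- and muscle-type subunits, were higher in chondrocytes and the platelet-type Pfkp was not called. Pfkl had 40.9, 51.7, 42.7 and 61.4 CPM in chondrocytes, against 11.1, 25.6, 21.6 and 28.4 CPM in endothelial cells (log2 fold change 1.49, SE 0.16). Pfkm had 11.7, 12.7, 28.2 and 26.2 CPM in chondrocytes, against 0, 4.16, 7.74 and 9.66 CPM in endothelial cells (log2 fold change 2.10, SE 0.25). Pfkp had 47.0, 65.0, 64.4 and 78.2 CPM in chondrocytes, against 86.1, 94.3, 87.5 and 59.7 CPM in endothelial cells (log2 fold change 0.09, adjusted p = 0.737). Pfkfb3 and Pfkfb4, which make the activator of phosphofructokinase, were both higher, by 0.54 and 1.87 on the log2 scale. By CPM Pfkfb3 was higher in 3 of 4 libraries, with means of 40.0 CPM in chondrocytes and 34.3 CPM in endothelial cells. The TMM scaling of edgeR moves this comparison by 0.33 to 0.44 toward chondrocytes on the log2 scale. Gpi1, not called, was lower by CPM in 4 of 4 libraries yet had a log2 fold change of 0.18. Both aldolases were higher, by very different amounts. Aldoc, the brain-type aldolase, had 20.8, 31.3, 25.3 and 31.4 CPM in chondrocytes and 0, 3.47, 0.704 and 0.386 CPM in endothelial cells (log2 fold change 5.33, SE 0.42, adjusted p = 5.77e-06). Its endothelial values on days 7 and 12 lay under the CPM of 3 UMIs in those sums (8.33 and 0.579). Aldoa, the muscle-type aldolase, had 272, 313, 248 and 265 CPM in chondrocytes and 186, 190, 143 and 117 CPM in endothelial cells (log2 fold change 1.22, SE 0.13).

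Every enzyme of the later steps passed the test in the same direction. Triosephosphate isomerase (Tpi1), phosphoglycerate kinase (Pgk1), phosphoglycerate mutase (Pgam1), enolase (Eno1) and pyruvate kinase (Pkm) were higher by 2.78, 2.09, 2.06, 2.22 and 1.03 on the log2 scale, and Gapdh by 0.76. Eno2, the neuronal enolase, was low, with 4.17, 2.56, 2.56 and 1.80 CPM in chondrocytes and 0, 1.39, 0 and 0.193 CPM in endothelial cells. The endothelial values all lay under the CPM of 3 UMIs in their sums (8.33, 2.08, 0.528 and 0.579). Ldha, the lactate dehydrogenase subunit that favours lactate, had 679, 826, 844 and 909 CPM in chondrocytes, against 361, 375, 302 and 241 CPM in endothelial cells (log2 fold change 1.77, SE 0.17, adjusted p = 2.28e-05). Ldhb, the subunit that favours pyruvate, had 69.8, 65.7, 40.9 and 37.6 CPM in chondrocytes, against 5.56, 6.93, 8.80 and 6.57 CPM in endothelial cells (log2 fold change 3.02, SE 0.21, adjusted p = 2.52e-06). For both subunits no endothelial library reached the lowest chondrocyte library. Slc16a3, the lactate exporter MCT4, had 57.5, 81.0, 55.8 and 92.3 CPM in chondrocytes and 11.1, 11.1, 6.69 and 6.37 CPM in endothelial cells (log2 fold change 3.64, SE 0.22). Pdk1, the kinase that closes the entry of pyruvate into mitochondria, had 40.0, 45.2, 77.2 and 69.6 CPM in chondrocytes and 25.0, 20.1, 26.8 and 24.3 CPM in endothelial cells (log2 fold change 1.75, SE 0.17). The 17 glycolytic enzyme genes of the list together took 0.367%, 0.441%, 0.369% and 0.431% of all UMIs in chondrocytes, against 0.192%, 0.216%, 0.163% and 0.159% in endothelial cells.

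Several hypoxia genes outside glycolysis had wide gaps. Ndufa4l2, which lowers complex I activity in low oxygen, had 577, 764, 213 and 332 CPM in chondrocytes, against 25.0, 27.7, 8.98 and 9.66 CPM in endothelial cells (log2 fold change 5.17, SE 0.16, adjusted p = 6.13e-08). Higd1a, a mitochondrial protein of the respiratory chain, had 1741, 2372, 658 and 590 CPM in chondrocytes, against 261, 306, 80.8 and 58.5 CPM in endothelial cells (log2 fold change 3.41, SE 0.14). Both genes lay lower on days 10 and 12 in both cell types, and in each library chondrocytes were the higher of the 2. Estimated free chondrocyte RNA in endothelial cells was 7.20% and 7.36% of UMIs on days 7 and 8, and 0.852% and 2.53% on days 10 and 12. For Ndufa4l2 that share of the chondrocyte level is above the whole endothelial level on days 7 and 8, so a fall within endothelial cells is not shown. The part of free RNA in the endothelial Higd1a values was not tested. Bnip3, a receptor for the removal of mitochondria, had 214, 281, 275 and 291 CPM in chondrocytes and 25.0, 31.9, 15.5 and 14.9 CPM in endothelial cells (log2 fold change 4.20, SE 0.24, adjusted p = 7.98e-07). Bnip3l, its paralog NIX, had 98.1, 128, 99.5 and 88.8 CPM in chondrocytes and 88.9, 112, 137 and 114 CPM in endothelial cells, with no call (adjusted p = 0.183). P4ha2, a subunit of the collagen prolyl hydroxylase, had 176, 188, 229 and 364 CPM in chondrocytes and 11.1, 26.3, 13.7 and 15.1 CPM in endothelial cells (log2 fold change 4.31, SE 0.28). P4ha1, a paralog of P4ha2, had 350, 354, 289 and 428 CPM in chondrocytes and 66.7, 79.7, 49.6 and 52.5 CPM in endothelial cells (log2 fold change 2.95, SE 0.17). Subtracting the estimated free chondrocyte RNA from the endothelial sums left the counts at 27 higher and 4 lower, and Bnip3 at a log2 fold change of 5.16.

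The sensors and subunits of the HIF system itself split. Epas1 had 18.7, 20.1, 35.4 and 25.7 CPM in chondrocytes, against 361, 360, 704 and 514 CPM in endothelial cells (log2 fold change -3.87, SE 0.12, adjusted p = 6.13e-08), with every endothelial library above every chondrocyte library. Hif1a had 199, 192, 128 and 136 CPM in chondrocytes and 206, 193, 114 and 82.9 CPM in endothelial cells. It passed the test as higher in chondrocytes (log2 fold change 0.62, SE 0.15, adjusted p = 0.00688), yet by CPM it was higher in only 2 of 4 libraries, since the TMM scaling of edgeR moves this comparison by 0.33 to 0.44 toward chondrocytes. Egln1, the main oxygen sensor, had 38.1, 49.7, 81.7 and 88.3 CPM in chondrocytes and 47.2, 42.3, 66.9 and 55.2 CPM in endothelial cells, and was called higher by 0.71 (SE 0.16) with 3 of 4 libraries higher by CPM. Egln3 had 4.55, 5.48, 9.95 and 8.80 CPM in chondrocytes and 0, 6.93, 5.63 and 12.4 CPM in endothelial cells, with no call. Adm, the vascular peptide adrenomedullin, had 1.24, 2.71, 1.81 and 2.96 CPM in chondrocytes and 13.9, 22.9, 10.0 and 6.57 CPM in endothelial cells (log2 fold change -1.98, SE 0.42). Ndrg1 had 43.4, 48.6, 30.3 and 31.8 CPM in chondrocytes and 122, 119, 173 and 130 CPM in endothelial cells (log2 fold change -1.46, SE 0.19). Ddit4, an inhibitor of mTORC1, had 17.6, 22.7, 16.1 and 18.1 CPM in chondrocytes and 50.0, 31.2, 28.2 and 49.2 CPM in endothelial cells (log2 fold change -0.64, SE 0.20, adjusted p = 0.0211). Its call was lost without the day-12 library (adjusted p = 0.155) and without the day-7 library (adjusted p = 0.0573).

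**Figure D2:**
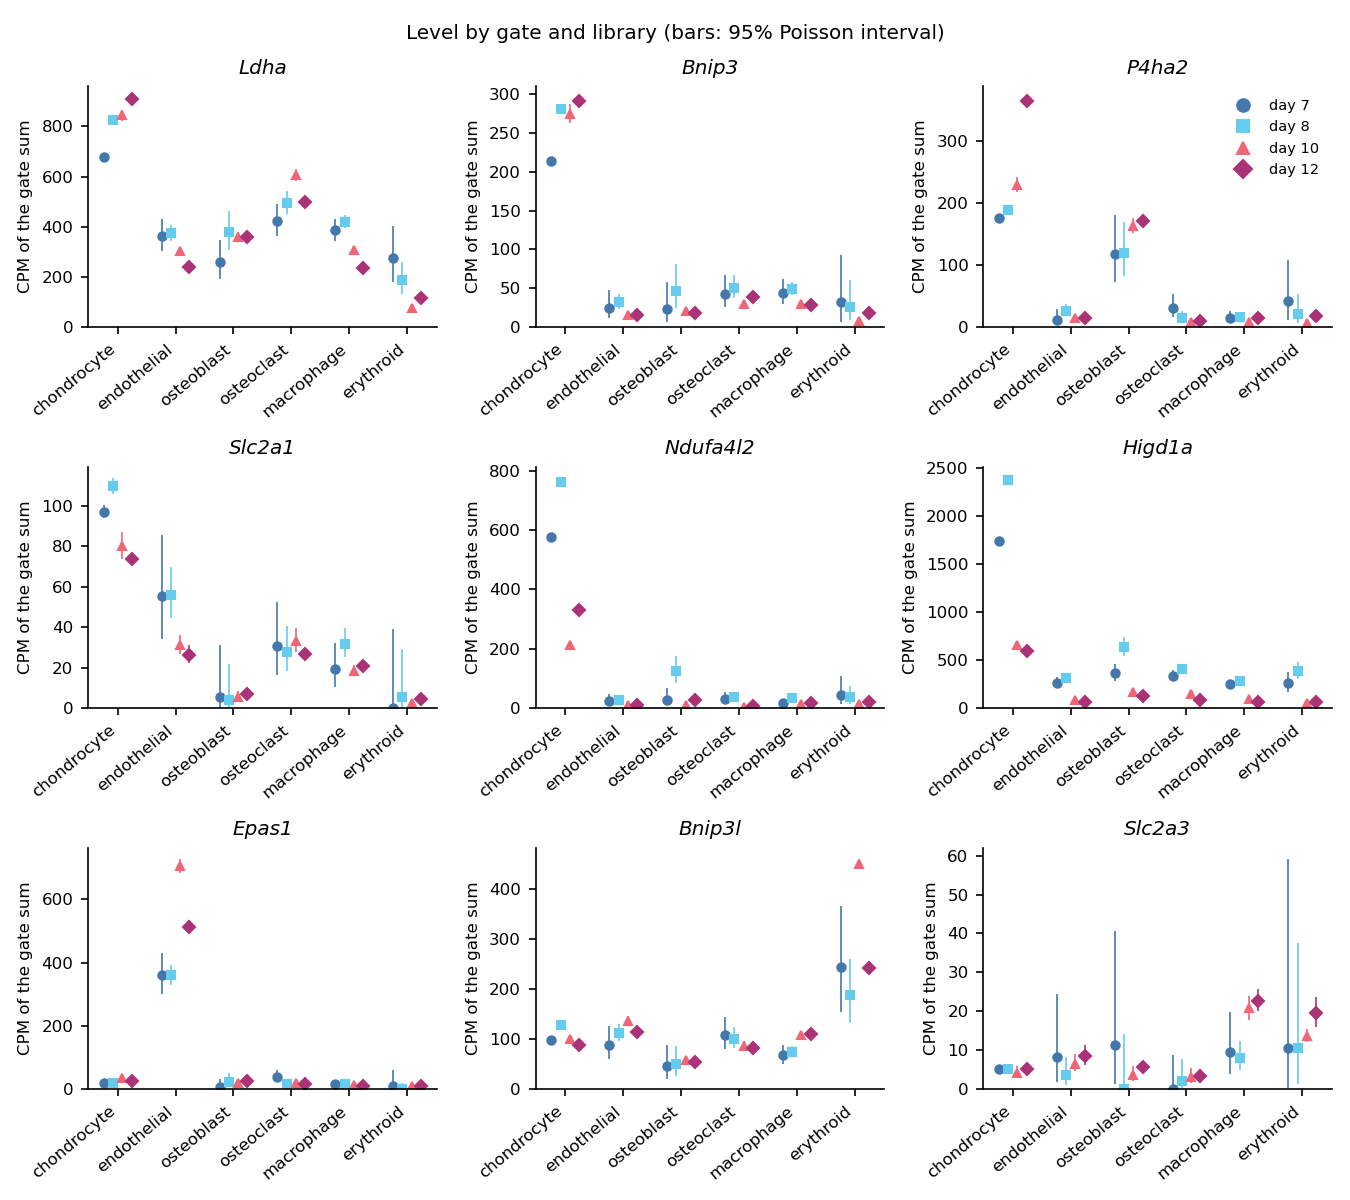
Level of 9 listed genes in CPM (vertical axes, linear from 0) in 6 gates (horizontal axes), with 1 point per library and day and bars for the 95% Poisson interval. Bnip3 and Ndufa4l2 stand high only in the chondrocyte points of this plot, while Epas1 is high in endothelial cells (360 to 704 CPM) and Bnip3l in erythroid cells (188 to 451 CPM).

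Bone-forming osteoblasts and bone-resorbing osteoclasts were taken next. Against osteoblasts, 31 of 38 genes were higher in chondrocytes and 1 was lower (18.8% of all genes were higher and 11.8% lower), with a list median of 1.30 against 0.11 for all genes. The 8 largest were Aldoc at 4.30, Ndufa4l2 at 3.72, Slc2a1 at 3.62, Bnip3 at 3.61, Car9 at 3.38, Egln3 at 3.11, Slc16a3 at 3.09 and Pgk1 at 2.18 on the log2 scale. Slc2a1 had 5.63, 3.86, 5.65 and 6.74 CPM in osteoblasts, far under its 73.7 to 110 CPM in chondrocytes. In the osteoblast sums of days 7 and 8, 3 UMIs correspond to 16.9 and 11.6 CPM, so low values there rest on few UMIs. The gap was small for the collagen hydroxylases: P4ha1 had 225, 309, 244 and 337 CPM there and was not called (log2 fold change 0.37, adjusted p = 0.0689), and P4ha2 was higher in chondrocytes by only 0.74. Ndrg1 was the lower gene (-0.75, SE 0.20, adjusted p = 0.00758), and its call was lost without the day-10 library (adjusted p = 0.371) and with DESeq2 (adjusted p = 0.0574).

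Against osteoclasts, 28 genes were higher in chondrocytes and 2 were lower (31% and 23% of all genes), with a list median of 1.20 against 0.17 for all genes. The 8 largest were Ndufa4l2 at 5.38, P4ha2 at 4.62, Slc16a3 at 3.79, Egln3 at 3.62, Bnip3 at 3.09, P4ha1 at 2.94, Higd1a at 2.79 and Ddit4 at 2.65. Osteoclasts held much of the enzyme set themselves. Aldoa had 591, 566, 554 and 516 CPM in osteoclasts, above every chondrocyte library (log2 fold change -0.71, SE 0.15, adjusted p = 0.00387). Gpi1, the isomerase of the second step, had 71.9, 83.8, 101 and 111 CPM in chondrocytes and 111, 191, 244 and 279 CPM in osteoclasts (log2 fold change -0.82, SE 0.19, adjusted p = 0.00562). Ldhb (75.3, 81.3, 62.9 and 47.7 CPM in osteoclasts), Gapdh and Hk1 were not called. The 17 enzymes took 0.301%, 0.333%, 0.371% and 0.350% of osteoclast UMIs, close to the chondrocyte shares of 0.367% to 0.441%. Aldoc, which separated chondrocytes most from endothelium, had 25.9, 29.9, 18.4 and 18.2 CPM in osteoclasts and was called higher in chondrocytes by only 0.63 (SE 0.20, adjusted p = 0.0262). By CPM Aldoc was lower in chondrocytes on day 7, and the TMM scaling moves this comparison by 0.21 to 0.50 toward chondrocytes.

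Of the blood cells, macrophages and erythroid cells had enough cells in all 4 libraries. Against macrophages, 30 genes were higher in chondrocytes and 1 was lower (33% and 26.1% of all genes), with a list median of 1.55 against 0.15. Ndufa4l2 at 4.74, P4ha2 at 4.64, Aldoc at 3.82, Higd1a at 3.37, Bnip3 at 3.23, Pfkm at 3.16, P4ha1 at 2.87 and Slc2a1 at 2.32 led. Slc2a3 was the lower gene, with 9.59, 8.07, 20.7 and 22.7 CPM in macrophages (log2 fold change -1.27, SE 0.35, adjusted p = 0.0158). That call was lost without the day-10 library (adjusted p = 0.0708) and without the day-12 library (adjusted p = 0.0792). Hk2 was not called, with 60.3, 61.1, 117 and 63.3 CPM in macrophages.

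Against erythroid cells, the maturing red cells that later lose their mitochondria, all 38 genes were called: 34 higher in chondrocytes and 4 lower (32.8% and 26.6% of all genes), with a list median of 2.27 against 0.13. Slc2a1 at 3.99, P4ha2 at 3.76, Bnip3 at 3.74, Ndufa4l2 at 3.73, Slc16a3 at 3.62, Aldoc at 3.62, Hk2 at 3.34 and Pgk1 at 3.22 were the largest. Bnip3l, known for clearing mitochondria from red cells, had 244, 188, 451 and 242 CPM in erythroid cells, above every chondrocyte library (log2 fold change -1.63, SE 0.36, adjusted p = 0.000542). Slc2a3 had 10.6, 10.4, 13.6 and 19.5 CPM in erythroid cells (log2 fold change -2.21, SE 0.33, adjusted p = 4.87e-06). In the erythroid sums of days 7 and 8, 3 UMIs correspond to 31.8 and 15.6 CPM, so low values there rest on few UMIs. Hk1 had 63.6, 57.3, 90.7 and 169 CPM in erythroid cells (log2 fold change -1.14, adjusted p = 0.00865), and its call was lost without the day-10 library (adjusted p = 0.153) or the day-12 library (adjusted p = 0.177). Pfkm was called lower (-0.67, adjusted p = 0.0374), with 42.4, 15.6, 18.2 and 38 CPM in erythroid cells, and kept its call under 3 of 14 alternatives. By CPM Hk1 and Pfkm were each lower in chondrocytes in only 3 of 4 libraries. Hemoglobin genes took 21.3% to 41.0% of erythroid UMIs, and with DESeq2's size factors 65.7% of all calls were higher in chondrocytes, against 55.2% with TMM, while the median of all genes was 0.44 in place of 0.13. Under those factors 37 of the 38 genes were called, with a list median of 2.57.

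Over the 5 comparisons, 18 of the 38 genes were higher in chondrocytes each time: Slc2a1, Pfkl, Aldoc, Tpi1, Pgk1, Pgam1, Eno1, Pkm, Ldha, Pdk1, Bnip3, P4ha2, Egln1, Car9, Hif1a, Ndufa4l2, Higd1a and Slc16a3. In the single comparisons 18.8% to 33% of all genes were higher. The share of all genes higher in all 5 was not counted, so the 18 have no background beside them. The comparisons share their chondrocyte sums, so these are not 5 independent results. By CPM, not all of them were higher in every library: Hif1a and Egln1 were not against endothelial cells, and Aldoc was not against osteoclasts. TMM scaling moved the comparisons with endothelial cells, osteoclasts and macrophages by 0.21 to 0.50 toward chondrocytes on the log2 scale. For erythroid cells the move was 0.41, 0.17, -0.96 and -0.42 on days 7, 8, 10 and 12, where negative values are toward erythroid cells. For osteoblasts it was 0.16, 0.14, -0.13 and -0.02. Slc2a3 was higher in chondrocytes in none of them and lower in 2. Outside the tested cells, Slc2a3 reached 216 and 448 CPM in neutrophils on days 10 and 12, where Slc2a1 made up 6.69% and 8.17% of the UMIs of both transporters, against 93.4% to 95.5% in chondrocytes. Epas1 had a median of 581 CPM in pericytes or smooth muscle cells over 4 libraries (436 to 777), a range that overlapped the endothelial one, and of 22.9 CPM in chondrocytes. Ndufa4l2 was likewise high in pericytes or smooth muscle cells (median 425 CPM, range 241 to 789) and in tendon cells (median 508 CPM, range 450 to 697), both overlapping the chondrocyte range of 213 to 764. P4ha1 had a median of 399 CPM in tendon cells (221 to 650) and 352 CPM in chondrocytes (289 to 428).

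The zones of the cartilage were compared next. The hypertrophic zone holds the swollen cells at the front where vessels and bone arrive, and the resting zone the small reserve cells. Of 34 tested genes, 14 were higher in the hypertrophic zone and 2 were lower, against 18.1% and 17% of all 10471 tested genes. The list median was 0.25, and that of all genes -0.02. Slc2a3, Eno2, Car9 and Adm fell below the filter on low counts. The fit depends on pairing the zones within each library: without the library block 4 genes were called. Of these 3 were higher and 1 lower, against 8.54% and 9.01% of all genes. The share of listed genes called higher was then near that of all genes. Hypertrophic cells were also deeper, with a median of 6167, 6337.5, 27307 and 15769 UMIs on days 7, 8, 10 and 12, against 3267, 3272, 18534.5 and 8542 UMIs in resting cells, and the part of depth in these differences was not tested.

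**Figure D3:**
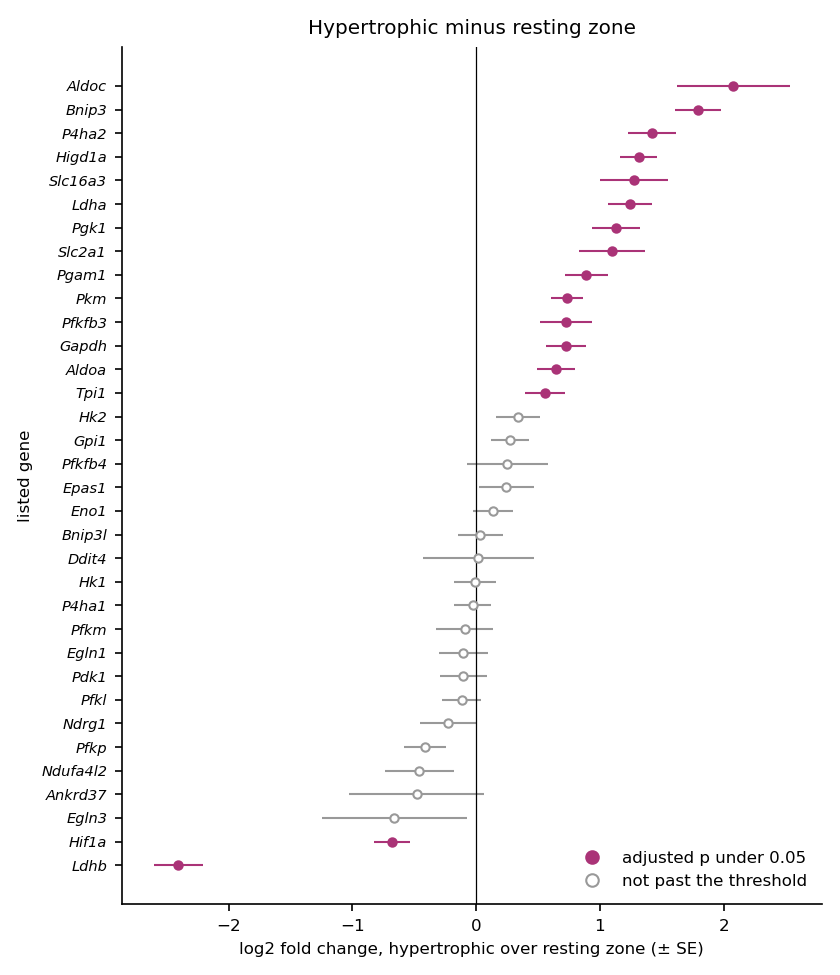
Log2 fold change with its SE (horizontal axis) of the 34 tested genes (rows) in the hypertrophic over the resting zone, with filled points where the adjusted p was under 0.05. Aldoc at 2.08 and Bnip3 at 1.79 stand at the top, and Ldhb at -2.40 is far to the left of all others.

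Bnip3 had 476, 504, 392 and 437 CPM in the hypertrophic zone on days 7, 8, 10 and 12, against 161, 227, 109 and 86.2 CPM in the resting zone (log2 fold change 1.79, SE 0.18, adjusted p = 2.85e-05). Aldoc had 37.7, 36.7, 27.7 and 43.9 CPM in the hypertrophic zone and 12.4, 23.5, 0 and 4.07 CPM in the resting zone (log2 fold change 2.08, SE 0.46, adjusted p = 0.00466), a call lost without the day-12 library (adjusted p = 0.0653). P4ha2 had 244, 275, 292 and 478 CPM in the hypertrophic zone and 135, 145, 95.7 and 120 CPM in the resting zone (log2 fold change 1.42, SE 0.20, adjusted p = 0.000239). In all 3 genes the lowest hypertrophic library lay above the highest resting one. Higd1a had 2555, 3407, 736 and 699 CPM in the hypertrophic zone and 1295, 1828, 285 and 210 CPM in the resting zone (log2 fold change 1.31, SE 0.15). Higd1a was higher in the hypertrophic zone within each of the 4 libraries, while both zones had lower values on days 10 and 12. P4ha1 was not called, with 271, 283, 248 and 411 CPM in the hypertrophic zone and 359, 357, 251 and 327 CPM in the resting zone (log2 fold change -0.03, adjusted p = 0.915).

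The enzyme genes that were higher in the hypertrophic zone lie along the pathway from glucose entry to lactate export: Slc2a1 at 1.10, Pfkfb3 at 0.73, Aldoa at 0.65, Tpi1 at 0.56, Gapdh at 0.73, Pgk1 at 1.13, Pgam1 at 0.89, Pkm at 0.73, Ldha at 1.25 and Slc16a3 at 1.28 on the log2 scale. Hk1, Hk2, Gpi1, Pfkl, Pfkm, Pfkp, Pfkfb4, Eno1 and Pdk1 were not called. Many hypoxia genes outside glycolysis were not called either: Ndufa4l2, Bnip3l, Ndrg1, Ankrd37, Egln1, Egln3 and Ddit4, besides P4ha1 and Epas1. In all, 18 listed genes were tested and not called between the zones. The lactate dehydrogenase subunits moved in opposite directions. Ldha had 929, 1054, 758 and 1001 CPM in the hypertrophic zone and 492, 601, 361 and 271 CPM in the resting zone (adjusted p = 0.000266). Ldhb had 14.5, 15.9, 6.29 and 15.9 CPM in the hypertrophic zone and 93.7, 90.7, 58.3 and 72.5 CPM in the resting zone (log2 fold change -2.40, SE 0.20, adjusted p = 6.35e-06). Ldha thus made up 98.5%, 98.5%, 99.2% and 98.4% of the UMIs of both subunits in the hypertrophic zone, against 84.0%, 86.9%, 86.1% and 78.9% in the resting zone. Hif1a was lower in the hypertrophic zone, with 132, 100, 79.2 and 110 CPM there and 223, 219, 127 and 155 CPM in the resting zone (log2 fold change -0.68, SE 0.14, adjusted p = 0.00361). Epas1 was not called, with 13.1, 22.0, 50.3 and 31.0 CPM in the hypertrophic zone and 20.1, 19.2, 30.8 and 27.5 CPM in the resting zone.

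Adm and Car9 were below the filter and are given because of their values, which were seen first. Adm had 1.45, 9.79, 12.6 and 15.7 CPM in the hypertrophic zone and 1.42, 3.57, 0 and 1.02 CPM in the resting zone, higher in 4 of 4 libraries but hardly on day 7. Car9, a surface carbonic anhydrase, had 0, 3.67, 0 and 2.41 CPM in the hypertrophic zone and 11.5, 14.0, 6.60 and 4.07 CPM in the resting zone, lower in 4 of 4 libraries.

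**Figure D4:**
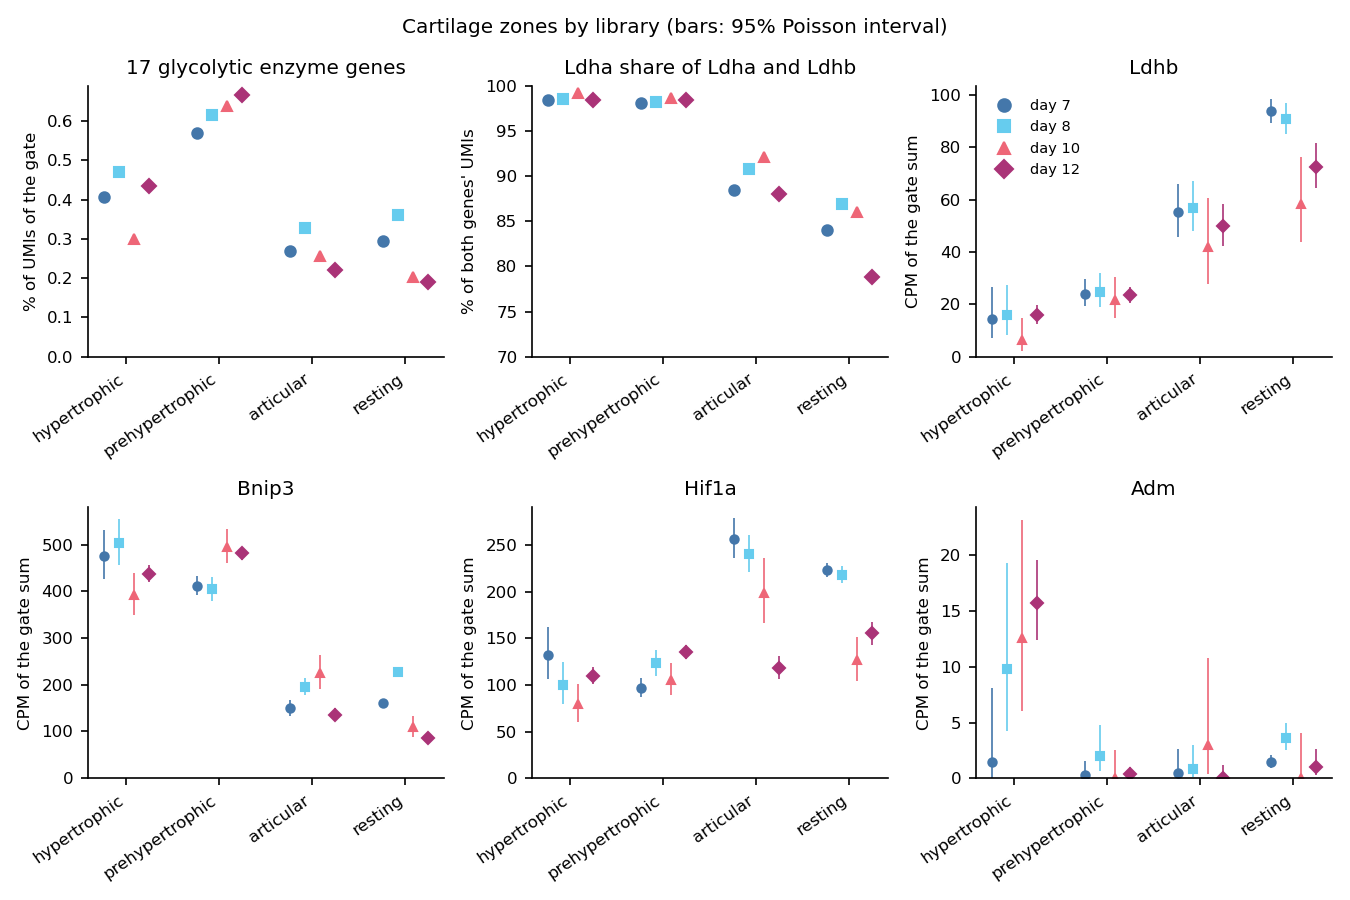
Share of UMIs of the 17 enzyme genes, share of Ldha in Ldha and Ldhb (axis from 70 to 100%), and CPM of Ldhb, Bnip3, Hif1a and Adm (vertical axes) in 4 cartilage zones (horizontal axes), with 1 point per library and bars for the 95% Poisson interval of the CPM. The prehypertrophic zone holds the highest enzyme share in every library, and Ldhb falls into a low pair of zones and a high pair.

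The prehypertrophic zone (Ihh, Pth1r, Panx3), between those stages, was given as values with no test. Its 17 enzymes took 0.571%, 0.616%, 0.639% and 0.666% of UMIs on days 7, 8, 10 and 12, against 0.406%, 0.470%, 0.299% and 0.434% in the hypertrophic zone, 0.270%, 0.329%, 0.257% and 0.220% in the articular zone and 0.295%, 0.361%, 0.204% and 0.191% in the resting zone. Ldha had 1265, 1372, 1675 and 1512 CPM in the prehypertrophic zone, above every library of the other 3 zones. Pgk1 had 761, 852, 985 and 1216 CPM there, against 195 to 397 CPM in the resting zone. Dividing chondrocytes, with 0.418%, 0.491% and 0.467% on days 7, 8 and 12, lay between the prehypertrophic and resting zones. The prehypertrophic zone held 455, 362, 41 and 495 cells on days 7, 8, 10 and 12. Its cells had a median of 7588, 6086.5, 33052 and 18256 UMIs, against 3267, 3272, 18534.5 and 8542 UMIs in resting cells. The part of depth in these zone values was not tested.

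Other genes of the same pathways were counted from a separate list of 50. Against endothelial cells 22 of 43 tested were higher in chondrocytes and 4 lower (28.9% and 25.6% of all genes), with a median log2 fold change of 0.59 against 0.05 for all genes. Against osteoblasts 15 of 44 were higher and 5 lower (18.8% and 11.8%), with a median of 0.35 against 0.11. Against osteoclasts 15 of 44 were higher and 11 lower, near the 31% and 23% of all genes, and the median of 0.16 was near the 0.17 of all genes. Against macrophages 21 of 44 were higher and 9 lower (33% and 26.1%), with a median of 0.56 against 0.15. Against erythroid cells 21 of 46 were higher and 13 lower (32.8% and 26.6%), with a median of 0.34 against 0.13. In the hypertrophic zone 12 of 38 were higher and 2 lower than in the resting zone (18.1% and 17%), with a median of 0.29 against -0.02 for all genes and 0.25 for the 38 listed genes. Stc2, Ak4 and Plod2, known HIF targets, were higher in chondrocytes than in endothelial cells by 5.46, 4.62 and 4.46 on the log2 scale. Vegfa, the main vessel growth factor, was higher by 2.71 against endothelial cells and not called between the zones (-0.25). In erythroid cells the red-cell enzymes Pklr and Bpgm were the highest relative to chondrocytes (-6.33 and -4.11).

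Genes of respiration (citrate cycle and electron transport) were counted the same way. Of 34 tested, 6 were higher and 9 lower in chondrocytes than in endothelial cells (28.9% and 25.6% of all genes). That balance turned to 9 higher and 4 lower without the day-8 library and to 8 higher and 5 lower with no filter on low counts. Against osteoblasts 1 was higher and 16 were lower (18.8% and 11.8% of all genes), against osteoclasts 1 and 31 (31% and 23%), against macrophages 3 and 16 (33% and 26.1%), and against erythroid cells 3 and 16 (32.8% and 26.6%). The median was -1.89 against osteoclasts, with citrate synthase (Cs) at -2.19 and the succinate dehydrogenase subunit Sdha at -2.31. In the hypertrophic zone 22 of 33 tested respiration genes were higher than in the resting zone (18.1% of all genes), with a median of 0.62. Cycs, cytochrome c, was higher there by 1.48 and Cox5a by 1.26. Without the library block 8 of these 33 genes were called (17.5% of all genes), and without the day-12 library 14 were (28.8% of all genes).

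Changes with age were given as ratios, because each day is 1 library and no test between days was possible. In chondrocytes 13 of the 38 genes were past 1.5-fold higher on day 12 than on day 7 and 7 were past 1.5-fold lower, against 30.7% and 28.2% of all 18466 genes with enough UMIs. With day 8 in place of day 7, 5 genes were past 1.5-fold higher on day 12 and 8 lower, against 28.4% and 29.2% of all genes. The balance of the list thus depends on which early library is used. The mix of zones differed as well: resting cells were 445 of 3086 chondrocytes on day 12 and 4613 of 9936 on day 7, and prehypertrophic cells were 495 on day 12 and 455 on day 7. Ratios within zones are therefore given after the pooled ones. On the lower side were Higd1a (590 CPM on day 12, 1741 CPM on day 7), Eno2, Hk2 (57.8 CPM on day 12, 126 CPM on day 7), Ldhb, Eno1 (218 CPM on day 12, 393 CPM on day 7), Ndufa4l2 and Car9, by 2.95-fold to 1.66-fold. The 8 highest were Adm, Egln1, Pfkm, P4ha2, Egln3, Pgam1, Pdk1 and Pfkp, by 2.36-fold to 1.66-fold. Within the resting zone alone Adm, P4ha2 and Pgam1 had log2 ratios of -0.22, -0.17 and -0.07, so their pooled ratios were not seen there, while the other 5 had 0.46 to 1.00. Adm also had a log2 ratio of only 0.12 over day 8. Car9, lower in the pool, had 6.24 CPM on day 12 and 1.96 CPM on day 7 in the prehypertrophic zone. Egln1 had 38.1, 49.7, 81.7 and 88.3 CPM on days 7, 8, 10 and 12, in the order of the days. P4ha2 had 176, 188, 229 and 364 CPM in the same order.

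**Figure D5:**
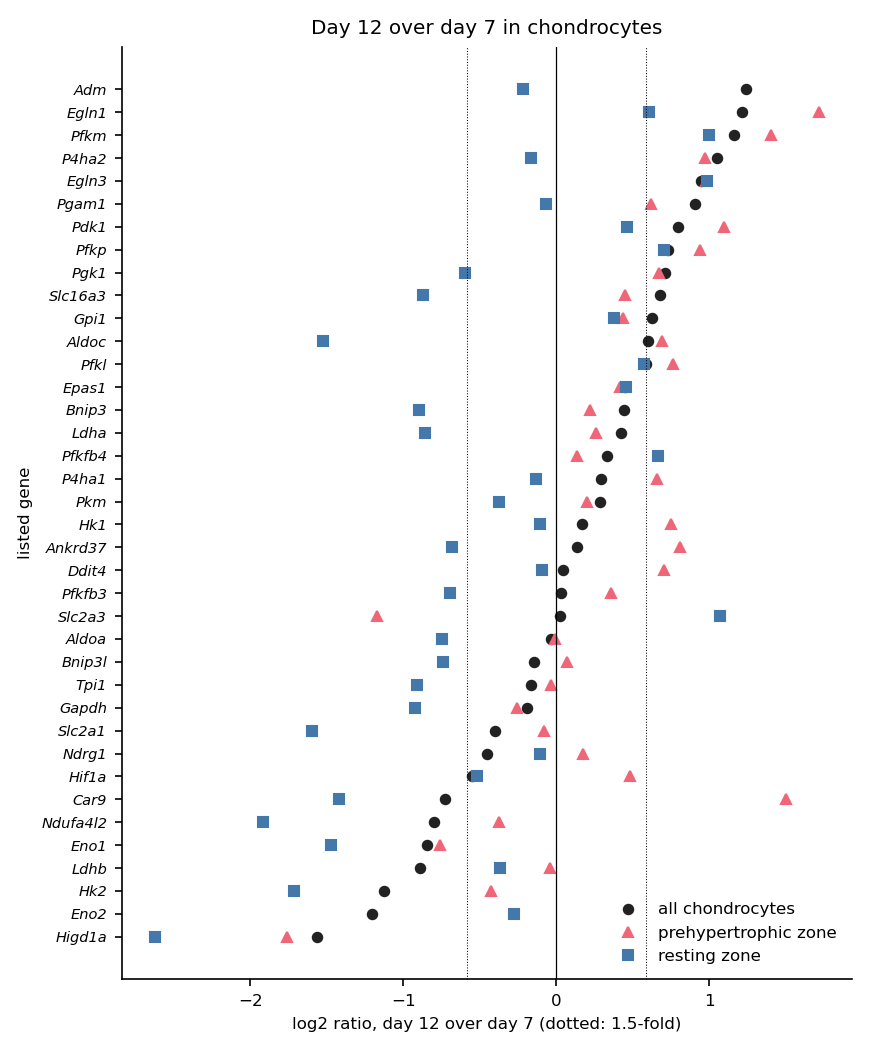
Log2 ratio of day 12 over day 7 (horizontal axis, dotted lines at 1.5-fold) of each listed gene (rows) in all chondrocytes, in the prehypertrophic zone and in the resting zone. Resting-zone squares lie left of the black points for most genes, with Higd1a at -2.62 and Ndufa4l2 at -1.92, while prehypertrophic triangles lie nearer to them or to the right.

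The difference between zones in this ratio was not tested. In the resting zone 6 genes were past 1.5-fold higher on day 12 and 17 lower (34.9% and 22.9% of all genes), and in the prehypertrophic zone 15 of 36 were higher and 3 lower (41% and 16.2% of all genes). Ldha had a log2 ratio of -0.86 in the resting zone and 0.26 in the prehypertrophic zone, Slc2a1 of -1.60 and -0.08, and Bnip3 of -0.90 and 0.22. In endothelial cells 6 of 35 genes were past 1.5-fold higher on day 12 and 13 lower (33.4% and 18.9% of all genes). Higd1a was among the lower ones, with 58.5 CPM on day 12 and 261 CPM on day 7, as were Hif1a (82.9 and 206 CPM) and Slc2a1 (26.3 and 55.6 CPM). With the estimated free chondrocyte RNA subtracted, 9 of 34 genes were past 1.5-fold higher and 12 lower (32.5% and 19.7% of all genes). The part of free RNA in the ratios of single genes is not given here. The day-7 endothelial sum held 51 cells, and for Pfkm, Egln3 and Pfkfb4 its count was 0.

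The order of the days was then counted over the 9 gates with enough cells in all 4 libraries, for the 33 listed genes with enough UMIs in each. Of these, 2 were below on both later days in every gate and 1 was above, which is near the shares of all genes. Higd1a and Eno1 had lower CPM on both day 10 and day 12 than on both day 7 and day 8 in 9 of 9 gates, as 3.36% of 9031 genes had. Egln1 was above on both later days in 9 of 9, as 2.78% of genes were. Ndufa4l2 was below in 8 of 9 gates, as was Gapdh. The day-7 and day-8 libraries were also the shallow pair and had more estimated free chondrocyte RNA, 7.20% and 7.36% in endothelial cells against 0.852% and 2.53% on days 10 and 12, and more RNA of dissociation stress genes, 1.27% and 1.33% of chondrocyte UMIs against 0.750% and 0.585%. The part of these in the order of the days was not tested, and age and library cannot be told apart.

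Processed copies of glycolytic genes can share reads with them. Named copies of Gapdh, Eno1, Pgk1, Aldoa, Pgam1 and Ldha held 0 to 6 UMIs in chondrocytes, against 30592 to 88417 for the genes, and no copy of Tpi1 or Pkm was named in the files. Reads that a counting program may have dropped for matching several places are not visible in these counts.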

How the data were processed

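The deposited values were whole-number UMI counts for each gene in each barcode, with no normalization. The submitters' processing notes name GRCm39, and no counting program is named in the sources used here. Per the labels' protocols, 3′ libraries were made on a droplet instrument. Total UMIs per library came to 44218720, 46534365, 132282322 and 169323978 in the order of age. Cells with at least 500 genes, 1000 UMIs and at most 15% mitochondrial UMIs were kept (11309, 11464, 10028 and 16254). Cells were gated by marker genes, with thresholds set after seeing the data; 92.5%, 80.7%, 66.0% and 73.4% of cells fell into 1 gate. No doublet caller was run, and cells of several gates were left out unless 1 gate had precedence (osteoclast over macrophage, macrophage over megakaryocyte, endothelial over reticular stromal, hypertrophic over prehypertrophic zone).

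Counts were summed per library and gate (at least 20 cells) and tested with edgeR 4.0.16 in R 4.3.3 (TMM, filterByExpr, quasi-likelihood), with the library as a block since both sums come from 1 cell suspension, and Benjamini-Hochberg adjustment over all genes, called under 0.05. SE values are the fold change over the root of F. The replicates are 4 libraries of different age, so p-values measure the spread of the difference across them. In data simulated for chondrocyte minus endothelial (13061 genes), 59.2% of 2-fold and 96.9% of 4-fold changes were recovered, and 0.124% of unchanged genes were called. That simulation changed 98 genes by 2-fold and 96 by 4-fold, in both directions, and gave all others the same mean in both classes. In the data 54.5% of genes were called in this comparison, so 0.124% is not the error rate of those calls. Day ratios used 1 added UMI and genes with at least 20 UMIs; 95% Poisson intervals cover counting error only.

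The 38 genes, the other lists, the gates and the alternatives were chosen with earlier results of these data known. For each comparison up to 8 genes per direction were named by size, and every library was printed for the largest, for the HIF subunits and for paralog groups. Alternatives were DESeq2 1.42.0, other size factors, filters, gates and cells, leaving out libraries, and, added after seeing the data, subtraction of free chondrocyte RNA. Sequences came from a RefSeq table of GRCm38.p6; gene coordinates of the files' build are not used here.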

Additional observations from a re-analysis of the deposited data

How the results depend on the processing

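Among 526 values of 38 gene and comparison pairs, 499 kept their direction and side of the threshold, 26 kept their direction but lost the call, and 1 reversed: Pfkm, chondrocyte minus erythroid, at 0.0905 (adjusted p = 0.798) without the top 5% of cells by UMIs. Counts of listed genes stayed within 1.5 times in the 5 chondrocyte comparisons. Without the replicate block, calls between the hypertrophic and resting zones were 4 of the listed genes (16 with it), 9 other pathway genes (14 with it) and 8 respiration genes (22 with it), and respiration calls were 5 against endothelial cells (15 with it), 6 against osteoblasts (17 with it) and 8 against macrophages (19 with it). Over all genes the called share without the block was 17.5% between zones (35.1% with it) and 40.4% against endothelial cells (54.5% with it). It was 19.2% against osteoblasts (30.6% with it) and 50.6% against macrophages (59.1% with it). The causes were not tested. Leaving out 1 library gave 8 to 14 respiration calls against endothelial cells (8 without day 12), 9 to 17 against osteoblasts (9 without day 10), 9 to 21 against erythroid cells (9 without day 10, 11 without day 12) and 14 to 24 between zones (14 without day 12). Listed genes past 1.5-fold between days numbered 20 in chondrocytes (13 higher, 7 lower, against 30.7% and 28.2% of all genes). Against day 8 they numbered 13 (5 higher, 8 lower, against 28.4% and 29.2%). Dividing cells alone had 11 (7 higher, 4 lower, against 38.3% and 14.3%). At 2-fold chondrocytes had 7 (4 higher, 3 lower, against 15.3% and 20.6%). Endothelial cells had 19 (6 higher, 13 lower, against 33.4% and 18.9%), or 10 at 2-fold (3 higher, 7 lower, against 18.1% and 9.63%). A stricter gate left 3 libraries for osteoblasts, erythroid cells and the zones.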
